A study of Mus musculus with 6 samples.

Results

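Genes whose symbols consist of Tex and a number, for testis-expressed, were examined in mouse testis. They number 34 of the 25165 gene symbols of the 6 deposited tables. They were chosen by name: all symbols that begin with Tex followed by a digit, without Tex11, Tex12, Tex15, Tex101 and without antisense names ending in os, of which there were none. The study concerns the long non-coding RNA Teshl (NR_038002) and compared 3 testis libraries titled KO with 3 titled WT. All mice were C57BL/6 and 8 weeks old. The genotype field reads wild type for the libraries titled KO and NR_038002-/- for those titled WT, against the titles of all 6 libraries, and groups go by title. The gene of Teshl, 1700027A15Rik, was at 0.385 FPKM in titled KO replicate 1 and listed at 0 in replicates 2 and 3, against 1028, 989 and 1081 FPKM in the libraries titled WT. Those values go with the titles.

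The name Tex describes where a transcript was found and not what its protein does, so the genes do not form one family. Some act in germ cells: Tex14 keeps the intercellular bridges between dividing germ cells stable, and Tex19.1 restrains retrotransposons. Others encode parts of the sperm tail or head, such as Tex37 and Tex43, which encode proteins inside the microtubules of the flagellum, and Tex38, which works with the palmitoyltransferase Zdhhc19. A few are used in most cell types, such as Tex264, a receptor for the degradation of endoplasmic reticulum, and Tex10, a nuclear protein of ribosome assembly.

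Values are FPKM, fragments scaled for transcript length and for the number mapped, so levels of different genes can be set side by side. The libraries held about 28000000 to 39200000 fragments, as read from the spacing of the lowest values. For a transcript of 1 kb, 3 fragments correspond to 0.0765 to 0.107 FPKM, a limit that covers counting error only. Differences were tested by limma on log2(FPKM + 1) over the 12952 genes whose mean reached 1 FPKM in either group, and all adjusted p-values are over those genes. Markers of germ cells, Sertoli cells and Leydig cells were present, and those of the epididymis (Lcn5, Crisp1 and Defb48) summed to at most 0.386 FPKM in any library, Lcn5 being listed at 0 throughout. In whole testis, fewer cells of a type and less RNA per cell cannot be told apart.

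Of the 34 genes, 32 passed the filter on low values, and the mean of each reached 1 FPKM in both groups. The other two were Tex28 and Tex52. X-linked Tex28 had values of 0.586, 0.688 and 0.743 FPKM in titled KO, against 1.12, 0.828 and 0.663 FPKM in titled WT, and the groups overlapped. Tex52 was listed at 0 in all 6 libraries. It lies on chromosome 6 of GRCm38, 128375456 to 128385144, and overlaps Foxm1 on the same strand in GENCODE M21. Such a 0 can be a failed estimate.

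Of the tested genes, 4 differed between the groups, 3 of them X-linked and higher in titled KO. Tex13c3, Tex13a and Tex13c1 rose 1.88-fold, 1.56-fold and 1.43-fold, and Tex55, on chromosome 16, fell to 66.9% of its level in titled WT (ratios of mean FPKM). The calls came to 9.38% higher and 3.13% lower of the 32 tested genes. Among all 12952 genes, 0.788% were called higher and 0.363% lower (102 and 47 genes, limma adjusted p under 0.05), and 1.15% in either direction. With upper-quartile scaling all genes split into 150 higher and 32 lower, and the Tex genes again into 3 and 1. The number of Tex genes called higher was 1 without titled KO replicate 2, titled KO replicate 3 or titled WT replicate 1, and 1 without a filter. Over all genes those settings called 49, 54, 52 and 56 higher and 24, 23, 29 and 32 lower, in the same order. With a block for the replicate number 1 Tex gene was called higher, and all genes split into 32 higher and 18 lower. Without titled WT replicate 2 all genes split into 67 higher and 33 lower, and without titled WT replicate 3 into 184 and 49, with 2 and 4 Tex genes called higher.

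The other 28 tested genes did not pass. Their log2 fold changes lay between -0.32 and 0.35, 16 of them positive and 12 negative, and 24 were within 0.15 of 0. The median over all 32 was 0.06, against -0.04 over all tested genes. The median turned to -0.00094 without titled WT replicate 2. The groups did not overlap in 9 of the 32 genes, 6 with titled KO higher and 3 with titled KO lower. Among all tested genes 21.7% did not overlap, 5.92% with titled KO higher and 15.8% with titled KO lower.

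**Figure D1:**
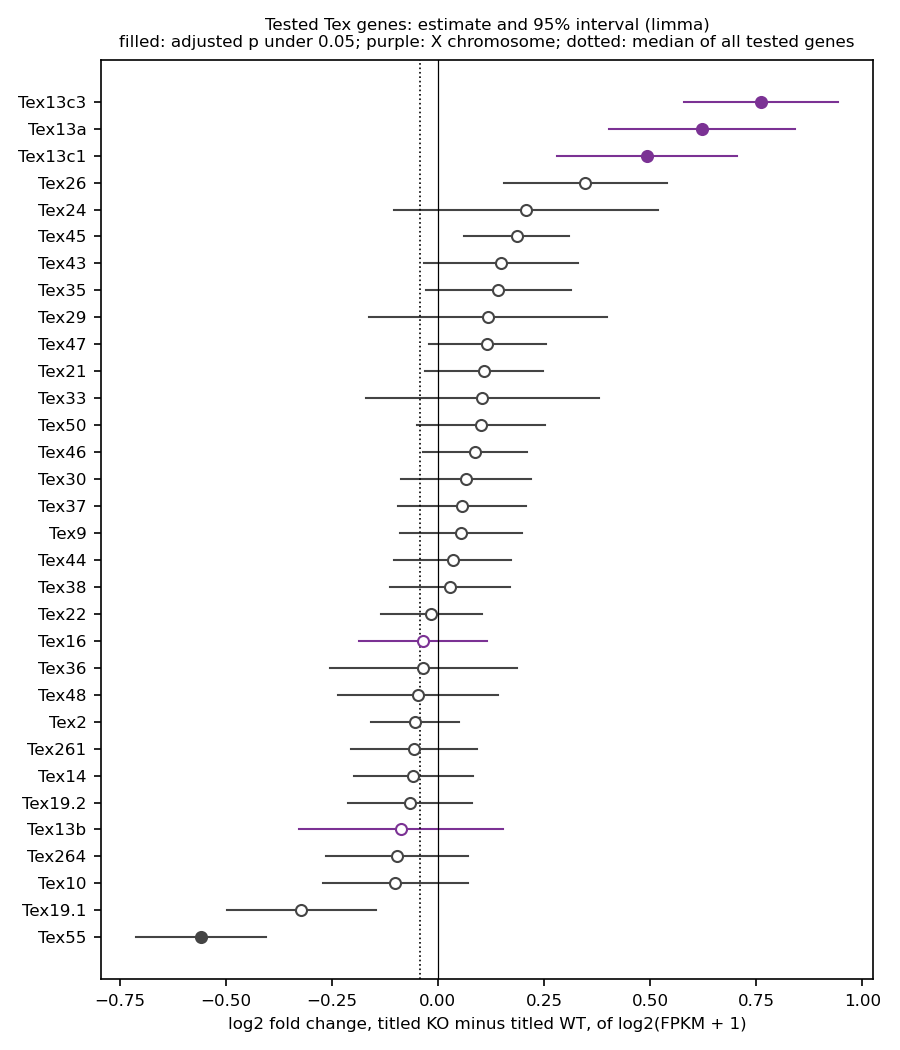
Log2 fold change (titled KO minus titled WT, on the log2(FPKM + 1) scale) of the 32 tested Tex genes, with 95% intervals from limma. Filled points passed the adjusted threshold: Tex13c3, Tex13a and Tex13c1 at the top and Tex55 at the bottom; purple marks the 5 tested X-linked genes and the dotted line the median of all tested genes (-0.04).

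The X-linked genes were taken first. Of the 34 genes, 6 lie on the X chromosome and 5 of these were tested: Tex13a, Tex13b, Tex13c1, Tex13c3 and Tex16. The names Tex13 and Tex16 go back to a search for transcripts of spermatogonia, and the Tex13 genes form a family of X-linked relatives. The libraries are of whole testis, so the cells that carried these transcripts cannot be told. Of the 5, 3 were called higher and 0 lower (by limma at an unadjusted p under 0.05 also 3 and 0). Among all 527 tested X-linked genes 14.2% were called higher and 0% lower. Of the 27 tested autosomal Tex genes, 0 were called higher (by limma 2 at an unadjusted p under 0.05) and 1 lower, where 0.21% and 0.251% of the 12365 tested autosomal genes were.

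Tex13c3 had the largest fold change of the 34. It was at 7.76, 6.48 and 7.44 FPKM in the libraries titled KO, against 3.77, 3.58 and 4.21 FPKM in those titled WT. Every library titled KO lay above every library titled WT. The means were 7.23 ± 0.668 and 3.85 ± 0.322 FPKM (SD, n = 3 each), and on the log2 scale titled KO was higher by 0.76 (SE 0.08, limma adjusted p = 0.00173). The call held in all 14 alternative settings (limma adjusted p = 0.00068 to 0.0199). The gene lies on the minus strand of X, 19479420 to 19481319 of GRCm38, with 2 exons in its one annotated transcript.

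Tex13a was the most abundant of the X-linked genes. It had 36.8, 45.9 and 40.6 FPKM in titled KO, against 27.7, 23.2 and 28.1 FPKM in titled WT, with no overlap. The means were 41.1 ± 4.57 and 26.3 ± 2.73 FPKM (SD, n = 3 each), a log2 difference of 0.62 (SE 0.10, limma adjusted p = 0.0217). The call was lost without titled KO replicate 2 (limma adjusted p = 0.0518), titled KO replicate 3 (0.103) or titled WT replicate 1 (0.0756). It was also lost without a filter (limma adjusted p = 0.0665) and with a block for the replicate number (0.133). Tex13a lies on the minus strand at 138208165 to 138209580, within the bounds of Il1rapl2 on the other strand. How the authors treated strand was not given in the sources used here, so reads of both genes may not be told apart.

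Tex13c1 showed the same direction and passed more narrowly. Its level was 20.7, 23.0 and 20.8 FPKM in titled KO, against 15.8, 12.8 and 16.5 FPKM in titled WT. The libraries of the groups lay apart, and titled WT replicate 2 was the lowest of the 6 for this gene as for Tex13a and Tex13c3. The means were 21.5 ± 1.32 and 15.03 ± 2.01 FPKM (SD, n = 3 each). The log2 difference was 0.49 (SE 0.09, limma adjusted p = 0.0475). The call was lost without any one of titled KO replicates 1, 2 and 3 (limma adjusted p = 0.0762, 0.173 and 0.154) or titled WT replicates 1 and 2 (0.125 and 0.0504). It was also lost without a filter (limma adjusted p = 0.126), with median-of-ratios scaling (0.0772) and without robust estimation (0.0777). A block for the replicate number lost it too (limma adjusted p = 0.180). Tex13c1 lies on the plus strand at 43591160 to 43593532.

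The X-linked genes at low levels gave other values. Tex13b had 0.846, 0.899 and 1.44 FPKM in titled KO, against 1.12, 1.18 and 1.22 FPKM in titled WT. One library titled KO was above and the other two were below all libraries titled WT. The log2 difference was -0.09 (SE 0.11, 95% interval -0.33 to 0.15, limma adjusted p = 0.703), and the coefficient of variation of 31.0% in titled KO was the highest of the 32 tested genes. Tex16 had 1.51, 1.44 and 1.52 FPKM in titled KO, against 1.47, 1.63 and 1.55 FPKM in titled WT, and the groups overlapped (log2 fold change -0.03, SE 0.07, 95% interval -0.18 to 0.12, limma adjusted p = 0.811). The intervals of Tex13b and Tex16 end below the estimates for Tex13a, Tex13c1 and Tex13c3. All are on the log2(FPKM + 1) scale, which understates fold changes of genes as low as Tex13b and Tex16. The difference between the genes was not tested.

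**Figure D2:**
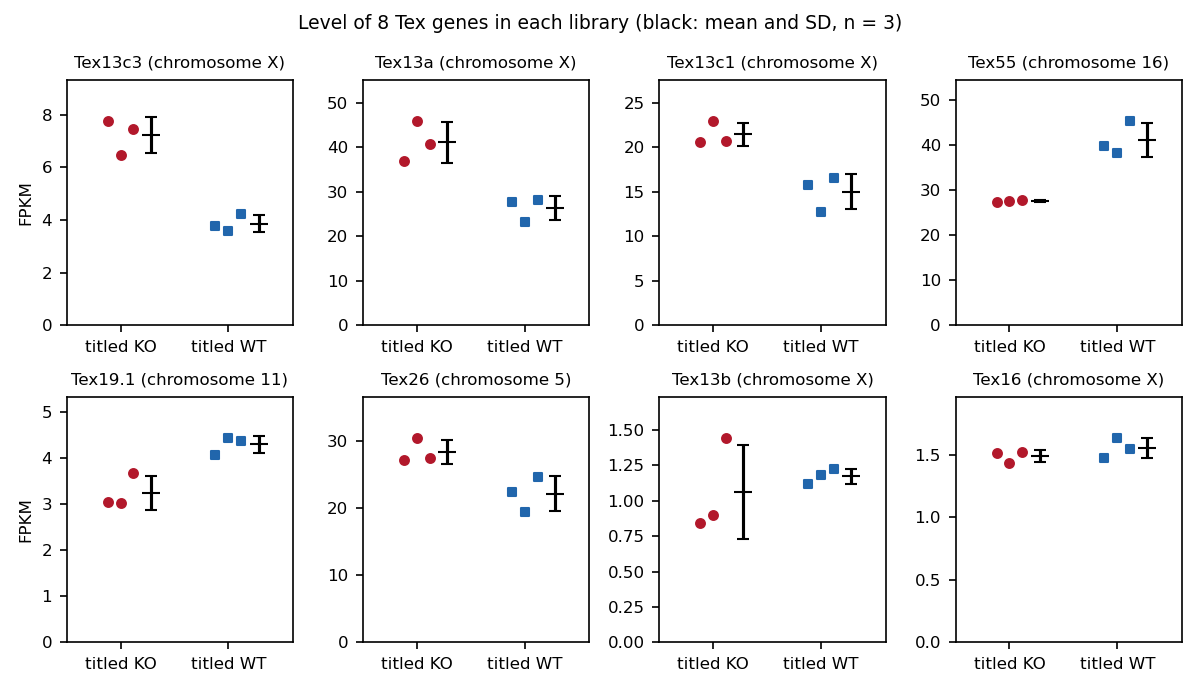
FPKM of 8 Tex genes in each library (points; red circles titled KO, blue squares titled WT), with the mean and SD of 3 libraries in black. Tex13c3, Tex13a, Tex13c1 and Tex26 lie higher in all libraries titled KO and Tex55 and Tex19.1 lower in all, while Tex13b and Tex16 overlap; of these, Tex26 and Tex19.1 did not pass the adjusted threshold.

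The Tex13 sequences were compared because reads of near relatives can be hard to assign. Tex13b was set against Tex13a only, and genes other than Tex genes were not compared. In GENCODE M21 transcripts, Tex13c1 and Tex13c3 aligned over 271 bases at 67.2% identity, with no identical run longer than 11 bases. Tex13a aligned with Tex13b over 502 bases at 73.7% identity, with a longest identical run of 18 bases. Tex13a and Tex13c1 gave no alignment, and Tex13a and Tex13c3 aligned over 110 bases. The most alike 60 coding bases of Tex13c1 (plus strand, chrX:43591317-43591376) and Tex13c3 (minus strand, chrX:19480992-19481051) are shown because they are the stretch where a read would be hardest to place. Each runs 5′ to 3′ over positions 158 to 217 of its coding sequence, and capitals mark the 12 bases that differ.
Tex13c1: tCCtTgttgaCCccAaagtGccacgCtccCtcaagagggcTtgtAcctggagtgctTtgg
Tex13c3: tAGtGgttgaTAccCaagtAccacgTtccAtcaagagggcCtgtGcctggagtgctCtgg

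The promoters of the X-linked relatives were compared because some of these genes rose together. The windows span 250 bases before to 50 after the start in RefSeq (GRCm38.p6). They are at chrX:43590739-43591038 on the plus strand for Tex13c1, at chrX:19481270-19481569 on the minus strand for Tex13c3 and at chrX:140813384-140813683 on the minus strand for Tex13b. The table used held no entry for Tex13a. Capitals mark TGACG, the half-site of the cAMP response element that the spermatid activator CREM binds, searched on both strands.
Tex13c1: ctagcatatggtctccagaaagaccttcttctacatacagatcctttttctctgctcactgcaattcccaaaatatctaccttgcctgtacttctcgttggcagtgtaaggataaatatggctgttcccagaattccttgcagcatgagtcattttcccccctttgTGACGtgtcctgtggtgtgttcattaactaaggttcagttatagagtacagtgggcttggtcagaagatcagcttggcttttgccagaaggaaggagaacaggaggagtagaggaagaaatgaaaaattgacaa
Tex13c3: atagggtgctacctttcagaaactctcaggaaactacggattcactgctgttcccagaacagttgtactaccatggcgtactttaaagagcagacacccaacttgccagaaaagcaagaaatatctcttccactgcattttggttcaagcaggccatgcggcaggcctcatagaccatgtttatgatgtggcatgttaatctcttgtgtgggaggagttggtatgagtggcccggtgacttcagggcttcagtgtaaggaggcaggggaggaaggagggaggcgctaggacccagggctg
Tex13b: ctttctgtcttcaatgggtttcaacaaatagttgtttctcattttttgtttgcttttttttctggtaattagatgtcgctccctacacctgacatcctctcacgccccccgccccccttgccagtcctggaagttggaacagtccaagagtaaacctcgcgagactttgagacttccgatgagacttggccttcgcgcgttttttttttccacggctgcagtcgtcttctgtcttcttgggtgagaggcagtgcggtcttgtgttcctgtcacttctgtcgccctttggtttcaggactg

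A single TGACG was found among the windows, in Tex13c1, with its first base at position -84 from the RefSeq start. In GENCODE M21 the gene starts at 43591160, beyond the downstream end of that window, so the position depends on the annotation. Tex13c3, with the larger fold change, and Tex13b held none. Over all 32851 promoters of the same length 20.8% held the letters, and 5 of 34 promoters of 29 Tex genes did (14.7%). The letters TATAAA, again on either strand, were in none of the windows of Tex13c1, Tex13c3 and Tex13b, in 3 of the 34 promoters (8.82%) and in 13.6% of all. Such matches describe the letters of the window and are not shown to be binding sites.

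Tex55 was the gene that fell. It encodes a testis protein also known as TSCPA, which binds the regulatory subunit of cAMP-dependent protein kinase. The level was 27.4, 27.5 and 27.8 FPKM in titled KO, against 39.8, 38.3 and 45.4 FPKM in titled WT. The libraries titled KO lay close together, with a coefficient of variation of 0.768%, and all were below the lowest library titled WT. The log2 difference was -0.56 (SE 0.07, limma adjusted p = 0.00432), and the call held in all 14 alternative settings (limma adjusted p = 0.00267 to 0.0340). The gene is listed in GENCODE M21 as 4930435E12Rik, on the minus strand of chromosome 16, 38812206 to 38828749, where Gm15803 overlaps it on the other strand.

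Genes of kinase anchoring in sperm were listed beside Tex55. Of the 9, Prkar2a, Prkar1a, Prkaca, Akap3, Akap4, Ropn1, Ropn1l, Cabyr and Spa17, all were tested and 0 were called (by limma at an unadjusted p under 0.05, 1 higher and 1 lower). Over all tested genes 1.15% were called, so 0 calls in a list this short do not show that its genes were unchanged. The log2 fold changes of the 9 ran from -0.18 to 0.18, with a median of 0.03. Akap4, the main anchoring protein of the fibrous sheath, was at 549, 549 and 536 FPKM in titled KO, against 511, 487 and 500 FPKM in titled WT (log2 fold change 0.13, limma adjusted p = 0.247). Prkar1a, a regulatory subunit of the kinase, was at 52.2, 53.1 and 53.3 FPKM in titled KO, against 58.1, 65.0 and 56.9 FPKM in titled WT (log2 fold change -0.18, limma adjusted p = 0.246). In both genes the groups did not overlap, in opposite directions. Among all tested genes the groups did not overlap in 21.7%.

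Another 3 genes had an unadjusted p under 0.05 and missed the adjusted threshold. Together with the 4 called genes that made 7 of 32 (5 higher and 2 lower), where 14.3% of all tested genes had such a p (5.38% higher and 8.89% lower). Tex19.1, which acts with the ubiquitin ligase Ubr2 and restrains retrotransposons in germ cells, was at 3.05, 3.03 and 3.68 FPKM in titled KO, against 4.08, 4.44 and 4.39 FPKM in titled WT. All libraries titled KO were below all titled WT (log2 fold change -0.32, SE 0.08, limma adjusted p = 0.108). Tex26 was at 27.1, 30.4 and 27.5 FPKM in titled KO, against 22.4, 19.5 and 24.6 FPKM in titled WT. It lay higher in all libraries titled KO (log2 fold change 0.35, SE 0.09, limma adjusted p = 0.114) and passed only without titled WT replicate 3 (0.0272). Tex26 overlaps 4933425D22Rik on the same strand of chromosome 5, so reads may have been divided between them. Tex45 was at 29.1, 30.9 and 28.5 FPKM in titled KO, against 25.6, 25.5 and 26.3 FPKM in titled WT, also without overlap (log2 fold change 0.19, SE 0.05, limma adjusted p = 0.189).

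Tex19.2, a relative of Tex19.1, was at 8.26, 7.89 and 9.07 FPKM in titled KO, against 8.78, 8.66 and 9.07 FPKM in titled WT. The groups overlapped (log2 fold change -0.07, SE 0.07, 95% interval -0.21 to 0.08, limma adjusted p = 0.635). The pair lies side by side on chromosome 11, Tex19.1 at 121146143 to 121148319 on the plus strand and Tex19.2 at 121116215 to 121118677 on the minus strand. Their transcripts aligned over 1197 bases at 75.7% identity and shared an identical run of 72 bases. An example is a stretch of 60 coding bases at chr11:121147208-121147267 for Tex19.1 (coding positions 391 to 450) and chr11:121117228-121117287 for Tex19.2 (334 to 393), shown because it has no capitals, the mark of a differing base. A read that fell within it could not be assigned to one of the pair, so the division of fragments between them is uncertain.
Tex19.1: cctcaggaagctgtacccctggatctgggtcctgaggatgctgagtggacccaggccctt
Tex19.2: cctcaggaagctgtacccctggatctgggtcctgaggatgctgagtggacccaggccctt

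Of 8 genes listed beside the Tex19 pair, such as Ubr2, Mov10l1, Mael and Dnmt3l, 0 were called (by limma also 0 at an unadjusted p under 0.05). With 1.15% of all tested genes called, the 0 of 8 does not show that these genes were unchanged. Log2 fold changes ran from -0.10 to 0.14. Ubr2 was at 2.18, 2.21 and 2.53 FPKM in titled KO, against 2.004, 2.39 and 2.32 FPKM in titled WT, with overlap (log2 fold change 0.03, limma adjusted p = 0.857).

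Levels spanned more than 2 orders of magnitude among the genes. Means over the 6 libraries were at least 100 FPKM in 8 genes and at least 20 FPKM in 23, and under 2 FPKM in 4, Tex52 included. Of the tested genes 71.9% had a mean of at least 20 FPKM, where 27.0% of all tested genes did. The 5 highest made up 44.2% of the summed level of the genes in titled KO and 43.8% in titled WT. The whole sum was 1853, 2058 and 1921 FPKM in titled KO, against 1844, 1726 and 2019 FPKM in titled WT, so the groups overlapped.

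The highest was Tex33, at 243, 290 and 268 FPKM in titled KO, against 245, 213 and 292 FPKM in titled WT (log2 fold change 0.10, SE 0.12, limma adjusted p = 0.672). Titled WT held both its lowest and its highest library. Tex48 followed with 155, 177 and 163 FPKM in titled KO, against 164, 156 and 193 FPKM in titled WT. Tex35 had 164, 181 and 166 FPKM in titled KO, against 155, 139 and 170 FPKM in titled WT. The means of Tex48 and Tex35 over the 6 libraries, 168 and 163 FPKM, differed by less than the spread of either.

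Next in level came 5 genes, Tex2 among them, whose means over the 6 libraries lay close together, between 108 and 128 FPKM. Tex37, of the flagellar microtubules, had 126, 133 and 131 FPKM in titled KO, against 127, 113 and 135 FPKM in titled WT. Tex43, of the same structure and on chromosome 18, had 125, 132 and 122 FPKM in titled KO, against 106, 106 and 130 FPKM in titled WT. Both overlapped between the groups, and neither passed (log2 fold changes 0.06 and 0.15, limma adjusted p = 0.691 and 0.417). Tex29 had 107, 134 and 121 FPKM in titled KO, against 118, 93.3 and 123 FPKM in titled WT. Tex22 had 104, 113 and 107 FPKM in titled KO, against 108, 106 and 113 FPKM in titled WT, the most alike pair of means among the 10 highest genes (108 and 109 FPKM). Tex36 and Tex21 closed the 10 highest, with 83.4 to 106 and 62.9 to 71.9 FPKM in titled KO, against 89.2 to 104 and 60.1 to 64.9 FPKM in titled WT. Tex36, like Tex22, had a negative log2 fold change near 0 (-0.03 and -0.02), and both turned positive with median-of-ratios and upper-quartile scaling.

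**Figure D3:**
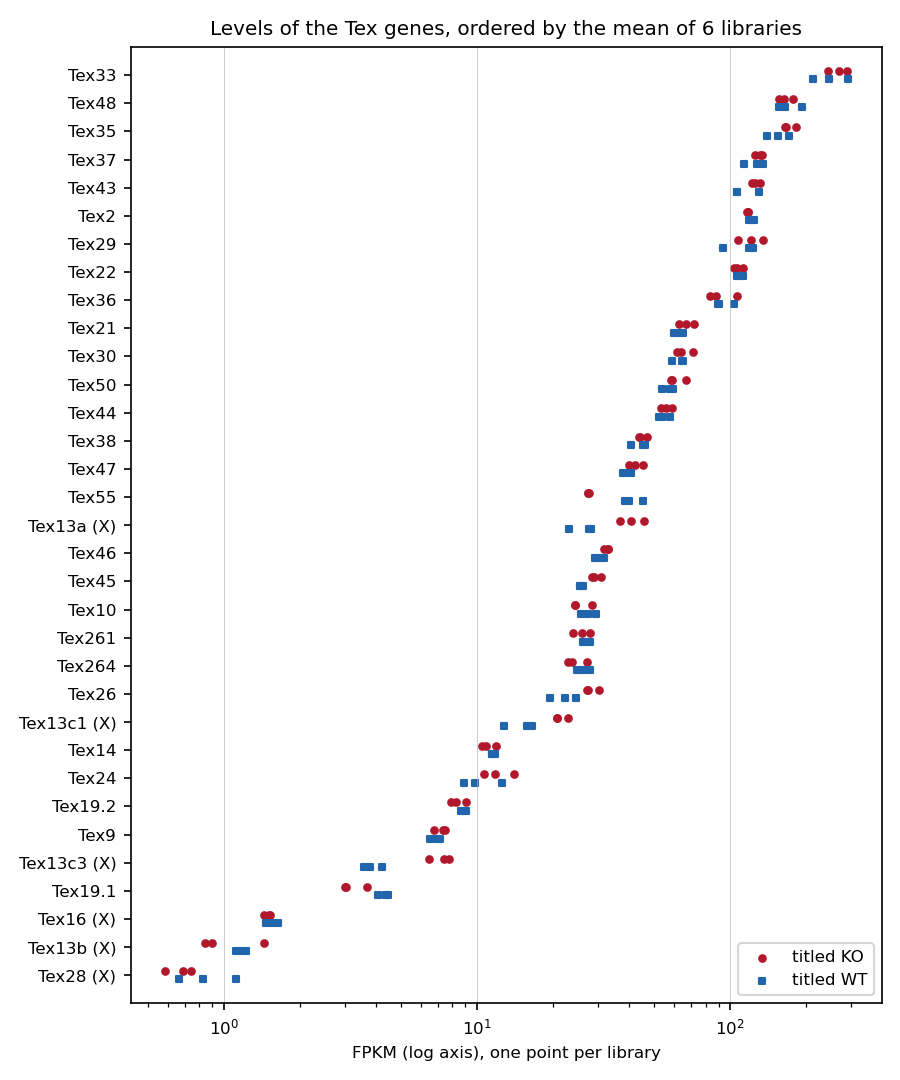
FPKM of the 33 Tex genes with any signal in each library on a log axis (red circles titled KO, blue squares titled WT), ordered by the mean of the 6 libraries. Tex33 leads at 213 to 292 FPKM and the X-linked genes Tex16, Tex13b and Tex28 are the lowest, at 0.586 to 1.63 FPKM; the groups separate visibly in Tex55, Tex13a, Tex13c1 and Tex13c3.

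The 6 genes used in most cell types were examined as a class. These are Tex2, a lipid-binding protein of membrane contact sites, Tex9, Tex10, Tex30, Tex261 and Tex264. None was called (by limma also 0 at an unadjusted p under 0.05), and their log2 fold changes lay between -0.10 and 0.07. Over all tested genes 1.15% were called and by limma 14.3% had an unadjusted p under 0.05. With 6 genes, 0 calls do not show that the class was unchanged. Tex2 was the most abundant, at 117, 116 and 118 FPKM in titled KO, against 119, 124 and 122 FPKM in titled WT. Its groups did not overlap, with titled KO lower and a log2 fold change of -0.05, close to the median of all tested genes (limma adjusted p = 0.576). The class summed to 261, 269 and 269 FPKM in titled KO, against 272, 272 and 273 FPKM in titled WT. That sum was lower in every library titled KO, by a ratio of 0.979. Among all tested genes 15.8% were lower without overlap and the median log2 fold change was -0.04, so such a shift is not particular to the class. With the remaining genes, the 20 testis genes outside the spermatogonial search summed to 1503 to 1689 FPKM in titled KO, against 1387 to 1669 FPKM in titled WT.

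Genes that work with single members were listed beside them. Over all tested genes 1.15% were called, 34.3% had a log2 fold change above 0 and the median was -0.04. At that share of calls, 0 calls in a short list do not show that its genes were unchanged. Tex14 was at 10.5, 10.8 and 11.9 FPKM in titled KO, against 11.4, 11.5 and 11.8 FPKM in titled WT (log2 fold change -0.06, SE 0.06, limma adjusted p = 0.659). Of 8 genes of the intercellular bridge and of cell division, Kif23 and Cep55 among them, 0 were called (by limma also 0 at an unadjusted p under 0.05), and the median log2 fold change was -0.11. Kif23, the bridge kinesin, was at 7.09, 7.56 and 7.15 FPKM in titled KO, against 6.99, 9.38 and 7.73 FPKM in titled WT.

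Tex10 was at 28.4, 24.3 and 24.3 FPKM in titled KO, against 27.5, 29.4 and 25.7 FPKM in titled WT (log2 fold change -0.10, limma adjusted p = 0.542). Its 9 listed partners in ribosome assembly and in the methylated Chtop complex had 0 calls (by limma 1 lower, Prmt1, at an unadjusted p under 0.05) and a median of -0.10. Tex264 was at 23.0, 23.7 and 27.1 FPKM in titled KO, against 28.02, 24.8 and 26.1 FPKM in titled WT (log2 fold change -0.10, limma adjusted p = 0.546). The 9 genes listed with it for reticulum degradation also had 0 calls (by limma 1 lower, Atl3, at an unadjusted p under 0.05). Their median was -0.09 and all values were below 0. Among all tested genes 34.3% lay above 0, with a median of -0.04. The 9 genes summed to 307 to 318 FPKM in titled KO, against 330 to 345 FPKM in titled WT. Atl3, an atlastin that serves as a receptor in that pathway, was at 53.5, 51.4 and 48.7 FPKM in titled KO, against 59.2, 59.0 and 56.2 FPKM in titled WT (log2 fold change -0.18, limma adjusted p = 0.197).

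Tex38 was at 43.9, 46.8 and 43.5 FPKM in titled KO, against 40.6, 45.1 and 46.0 FPKM in titled WT, with overlap (log2 fold change 0.03, limma adjusted p = 0.837). Zdhhc19, its enzyme partner, was at 44.8, 52.6 and 45.0 FPKM in titled KO, against 42.3, 42.5 and 47.9 FPKM in titled WT (log2 fold change 0.10, limma adjusted p = 0.553). Of the 6 genes of head shaping 0 were called (by limma 1 higher, Spem1, at an unadjusted p under 0.05). The 14 genes of the sperm doublet microtubules listed beside Tex37 and Tex43 had 0 calls (by limma 1 higher, Efhc2, at an unadjusted p under 0.05) and a median of -0.05.

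The same libraries were highest or lowest for many of the genes. Titled KO replicate 2 was the highest of the 6 libraries for 15 of 32 genes, and titled WT replicate 2 was the lowest for 16. Within titled KO, replicate 2 was the highest for 19 genes and replicate 1 the lowest for 19. Within titled WT, replicate 3 was the highest for 25 genes and replicate 2 the lowest for 22. The round spermatid markers Acrv1, Spaca1, Catsper1 and Izumo1 summed to 320, 424 and 363 FPKM in titled KO, against 328, 305 and 373 FPKM in titled WT. That sum had the same order of libraries within each group; its part in the values of the Tex genes was not tested. The median coefficient of variation of the Tex genes was 6.56% in titled KO and 5.85% in titled WT, near the 6.38% and 6.78% of all tested genes.

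The marker list of elongating spermatids lay apart between the groups. Its 6 genes (Prm1, Prm2, Tnp1, Tnp2, Odf1 and Akap4) summed to 31529 to 33564 FPKM in titled KO, against 26380 to 30205 FPKM in titled WT, a ratio of 1.16. Prm1, Prm2, Tnp1 and Tnp2 made up most of that sum. Of the 6, 0 were called (by limma 4 higher at an unadjusted p under 0.05), and Tnp1 and Odf1 overlapped between the groups. For comparison, 1.15% of all tested genes were called. By limma 5.38% of all tested genes rose in titled KO with such a p, and 8.89% fell. In a list this short, 0 calls do not show that its genes were unchanged. Odf1 had a negative log2 fold change (-0.04, limma adjusted p = 0.740). Markers of spermatogonia (Zbtb16, Gfra1, Kit, Stra8 and Uchl1) summed to 30.6 to 35.6 FPKM in titled KO, against 37.5 to 44.6 FPKM in titled WT, a ratio of 0.795, and of 4 tested 0 were called (by limma 2 lower at an unadjusted p under 0.05). Uchl1 made up most of that sum, averaging 22.7 FPKM in titled KO, against 29.8 FPKM in titled WT. Without it, a sum added after the data were seen, the list came to 9.08, 9.64 and 11.1 FPKM in titled KO, against 10.95, 10.95 and 11.7 FPKM in titled WT, and the groups overlapped (ratio 0.887). Gfra1, the receptor of undifferentiated spermatogonia, differed by 0.0069 on the log2 scale (limma adjusted p = 0.969).

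The 4 Tex13 genes summed to 66.1, 76.3 and 70.2 FPKM in titled KO, against 48.4, 40.7 and 50.1 FPKM in titled WT. Nearly all of that sum comes from the genes called higher, so it repeats their values and is no further evidence. The 28 autosomal Tex genes summed to 1785 to 1979 FPKM in titled KO, against 1682 to 1967 FPKM in titled WT, a ratio of 1.03. Sertoli markers summed to 125 to 133 FPKM in titled KO, against 131 to 142 FPKM in titled WT. Sums of Leydig, peritubular and macrophage markers also overlapped. Insl3 made up most of the Leydig sum. All 5 Leydig markers had log2 fold changes below 0 (median -0.14), where 34.3% of all tested genes lay above 0. Hsd3b1 was lower without overlap (log2 fold change -0.29, limma adjusted p = 0.158), as was the Sertoli marker Amhr2 (-0.13, 0.333). Among all tested genes 15.8% were lower without overlap. The other Leydig and Sertoli markers overlapped between the groups. The part of the marker values in the rises of Tex13a, Tex13c1 and Tex13c3, in the fall of Tex55 and in the lower values of Tex19.1 was not tested.

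**Figure D4:**
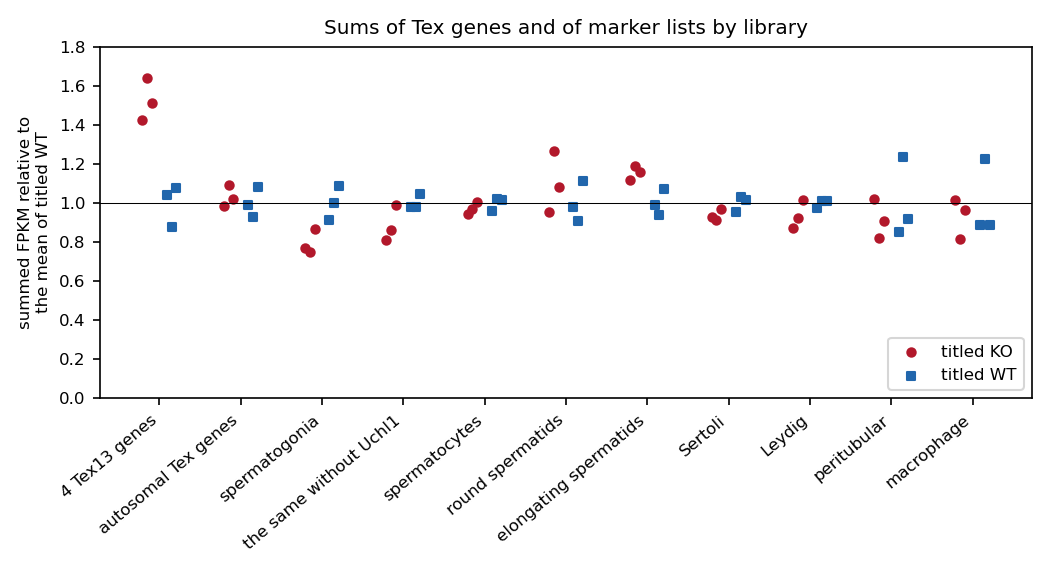
Summed FPKM of Tex genes and of marker lists in each library, divided by the mean of the 3 libraries titled WT (red circles titled KO, blue squares titled WT). Elongating spermatid markers lie apart with a ratio of 1.16; spermatogonial markers lie apart with 0.795 but overlap without Uchl1 (0.887), and the autosomal Tex genes overlap. The sum of the 4 Tex13 genes mostly repeats the 3 called genes.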

How the data were processed

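Total RNA was extracted with Trizol and made into libraries with a directional kit, per the labels' protocols. HISAT2 and the build mm10 are named in the submitters' processing notes. Quantifier, annotation and treatment of strand were not given in the sources used here. The deposited tables hold FPKM, scaled by length and depth by the authors, as read from the values. Their 25910 rows were summed per symbol, and each Tex symbol stood on a single row. No label names the animal behind a library, and p-values therefore measure only the variation among these 6 libraries, which may be technical.

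FPKM values with 1 added were put on the log2 scale and tested with limma 3.58.1 (R 4.3.3), using trend and robust options, with Benjamini-Hochberg adjustment over 12952 genes and a threshold of 0.05. This scale understates fold changes of low genes. The test was tried on simulated libraries. Positions come from GENCODE M21 (GRCm38, the assembly of mm10): all 34 symbols matched, 1 by synonym. Promoters come from RefSeq, and transcripts were aligned with BLAST 2.17.0. Named with values were Tex genes that were called, had an unadjusted p under 0.05, did not overlap and reached 0.3 in size on the log2 scale, were among the 10 highest, lay on X or belonged to a related pair. Other genes named with values, Tex or from the lists, were picked after values were seen. Members and lists were chosen with earlier results of these data known. Alternatives were 2 other pseudocounts, 2 filters, 2 scalings, limma without the robust option, a block for the replicate number and each library left out.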

Additional observations from a re-analysis of the deposited data

How the results depend on the processing

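Tex55 was called lower, and Tex13c3 higher, in all 14 alternatives. The number of Tex genes called higher, 3 as reported, was 1 without a filter (more genes tested) and 1 with the replicate block, and lay between 1 and 4 with one library left out. The number called lower was 1 in every alternative run. No label says that the replicate numbers pair the libraries. Deviations of same-numbered libraries correlated at 0.065, -0.13 and 0.061. Titled KO replicates 1 and 2 correlated best with other numbers of titled WT, and titled KO replicate 3 with its own number. With 3 libraries in each group, these values cannot decide whether the numbers pair them. The block lost Tex13a (limma adjusted p = 0.133) and Tex13c1 (0.180). Of the 32 tested Tex genes, 8 turned sign in at least one alternative, and none of the 8 was called. Tex48 was 0.0055 with upper-quartile scaling, Tex22 was 0.028 and 0.037, and Tex36 was 0.0080 and 0.017, with median-of-ratios and upper-quartile scaling. With one library left out, log2 fold changes ran from -0.0049 to 0.22 for Tex33, -0.11 to 0.044 for Tex48, -0.013 to 0.11 for Tex37, -0.0041 to 0.20 for Tex29, -0.047 to 0.010 for Tex22, -0.14 to 0.035 for Tex36, -0.00036 to 0.079 for Tex44 and -0.026 to 0.062 for Tex38. The cause was not tested.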
